A study of Danio rerio with 2 samples.

Results

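The stretch of zebrafish chromosome 4 from 25 Mb onwards, most of its long arm, was examined in ATAC-seq peak lists from neuroblastoma cells. ATAC-seq marks open chromatin by the places where the Tn5 transposase can insert sequencing adapters. A peak belonged to the long arm when it lay on chromosome 4 of build danRer7 and started at or beyond 25 Mb. This gave 2169 of 146395 peaks in all, namely 1121 of 77836 in the MYC list and 1048 of 68559 in the MYCN list. The peaks of chromosome 4 that start before 20 Mb, called the short arm here, served for comparison (1621 in MYC and 1097 in MYCN).

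The MYC library came from tumours of MYC transgenic zebrafish and the MYCN library from tumours of MYCN transgenic zebrafish. Both used 50000 flow-sorted cells positive for the dbh:EGFP reporter, which the labels call neuroblasts. The labels name neither the promoter that drives MYC or MYCN nor the number of fish pooled, and give no untransformed control tissue. With 1 library per transgene, every difference below is between these libraries, and peaks are neighbours on a chromosome rather than replicates, so no p-value was computed. Intervals are 95% intervals and cover counting error only. Read depth is unknown from peak lists. The neuroblast identity was not checked, since a gene annotation of danRer7 was not used here, and no gene names are given to the sites.

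The long arm of zebrafish chromosome 4 is known as a heterochromatic, late-replicating arm. Heterochromatin is compact chromatin, usually rich in repeats and poor in sites open to enzymes such as Tn5. The arm is known for tandem copies of small structural RNA genes and for large families of zinc finger and NLR immune receptor genes that lie in many similar copies, and in some natural strains its far end holds a sex-linked region. Short reads from such copies can match several places, and the peak lists do not show how such reads were placed. No chromatin mark of heterochromatin was measured in these files.

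Open sites were sparse along the long arm in both tumours. The MYC list had 30.2 peaks per Mb on the long arm (exact Poisson interval 28.5 to 32.1), against 81.1 on the short arm (77.2 to 85.1) and 57.8 on the other nuclear chromosomes. The MYCN list had 28.3 peaks per Mb on the long arm (26.6 to 30.0), against 54.9 on the short arm (51.7 to 58.2) and 51.1 on the other chromosomes. The long arm density was thus 0.373 times that of the short arm in MYC (0.346 to 0.403) and 0.515 times in MYCN (0.473 to 0.561). Set against the other chromosomes, the ratios lay closer together, at 0.523 in MYC (0.493 to 0.555) and 0.553 in MYCN (0.520 to 0.588). On the short arm the MYC density was above that of the other chromosomes, and the MYCN density was near it. Peaks covered 1.08% of the long arm in MYC, against 3.07% of the short arm, and 0.998% in MYCN, against 1.93%.

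The sparse density held window by window, with rises around 27 to 28 Mb and from 58 Mb on. Among the 37 full windows of 1 Mb on the long arm, the MYC count ran from 12 to 74 with a median of 27, against 60 to 103 with a median of 82.5 in the 20 windows of the short arm. The MYCN count ran from 13 to 77 with a median of 24, against 32 to 76 with a median of 53.5. In MYC, 36 of the 37 long arm windows held fewer peaks than the lowest short arm window, and in MYCN 28 did. The window at 27 to 28 Mb was the exception in MYC, with 74 MYC and 77 MYCN peaks. The windows from 58 to 62 Mb held 45, 45, 45 and 52 MYC peaks, and 40, 51, 39 and 49 MYCN peaks.

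**Figure D1:**
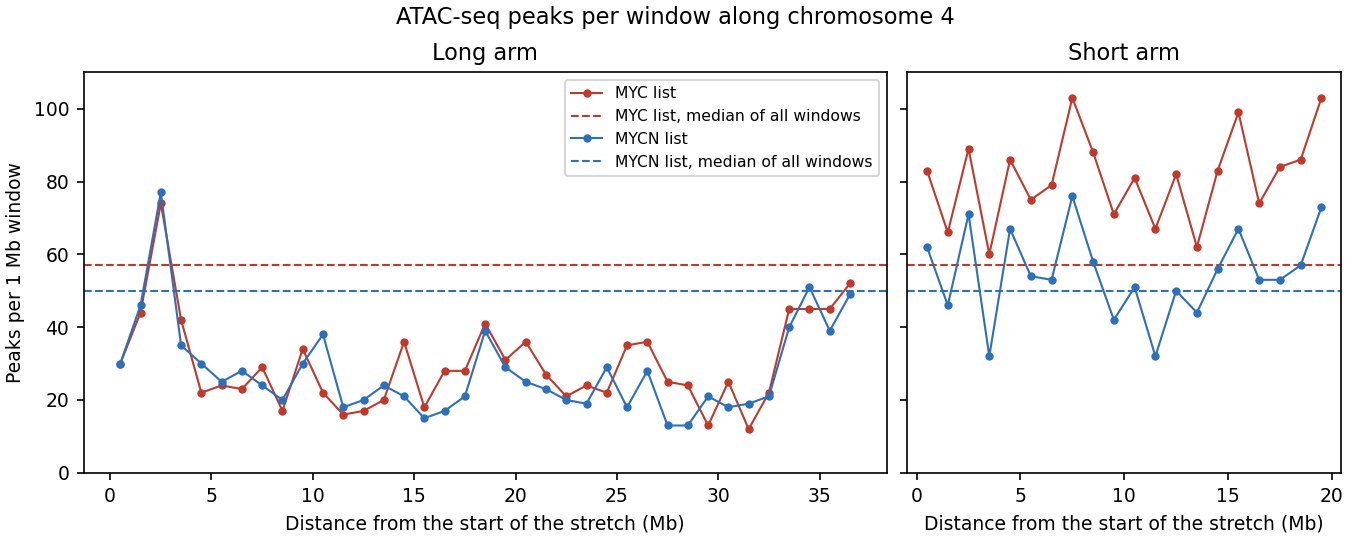
Number of ATAC-seq peaks per 1 Mb window (y axis) against the distance from the start of the long arm stretch (left) or of the short arm (right) in Mb. Points are windows, red is the MYC list and blue the MYCN list, and dashed lines are the medians of all 1344 full windows, 57 in MYC and 50 in MYCN. Long arm windows lie below these medians apart from the rise near 2.5 Mb and, in MYCN, 1 window near 34.5 Mb.

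By density, the arm had a sparse middle and denser stretches towards both ends, with the rise at the far end starting near 58 Mb. The stretch from 30 to 55 Mb held 25.9 MYC and 23.1 MYCN peaks per Mb. The first 5 Mb of the long arm, from 25 to 30 Mb, held 42.4 MYC and 43.6 MYCN peaks per Mb. The stretch from 55 Mb to the end held 37.0 and 35.6. The final 80.0 kb, beyond 62 Mb, alone held 16 MYC and 15 MYCN peaks.

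The open sites of the long arm were also narrow and low in score. The score is the authors' value per peak and was used only as a rank within its own list, given as a percentile (100 is the highest score). MYC peaks had a median width of 295 bp on the long arm (quartiles 233 and 426), against 326 bp on the short arm (247 and 461), and the median score percentile was 35.4, against 48.5. MYCN peaks had a median width of 296 bp on the long arm (238 and 407), against 304 bp (245 and 417), and the median percentile was 37.7, against 44.8. The long arm minus short arm difference in median width was -31 bp in MYC, with an interval from order statistics of -44.4 to -19.0 bp. In MYCN it was -8 bp, with an interval of -21.6 to 4.04 bp that includes 0. Among MYCN peaks that overlap a MYC peak, the long arm median was 7 bp above that of the short arm in width and 0.50 points above it in percentile. Among the same kind of peaks in MYC, the long arm minus short arm differences were -47.5 bp and -18.1 points. Against the other chromosomes, with medians of 338 bp (MYC) and 325 bp (MYCN), long arm peaks were narrower in both lists.

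Weak peaks made up more of the long arm than of the short arm in both lists. Of the long arm peaks, 138 in MYC had the smallest width of 200 bp, which is 12.3%, against 7.09% on the short arm and 6.91% of the whole list. In MYCN, 97 did, which is 9.26%, against 6.65% on the short arm and 6.68% of the whole list. In the lowest of 10 score classes lay 18.4% of the long arm MYC peaks, against 10.4% of the short arm and 10.6% of the whole MYC list. In MYCN it held 16.9% of the long arm peaks, against 10.8% of the short arm and 10.2% of the whole MYCN list. The highest class held 58 long arm MYC peaks, or 5.17%, against 7.71% of the short arm and 9.99% of the whole MYC list. In MYCN it held 68 long arm peaks, or 6.49%, against 5.65% of the short arm and 10% of the whole MYCN list. In both lists the long arm thus had a larger share of low scores, and a smaller share of high scores, than the whole list.

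In steps of 5 Mb, the middle of the arm, whose limits of 30 and 55 Mb were chosen after the values were seen, stood at the bottom of the genome. The lists spanned 259 full segments of 5 Mb on the nuclear chromosomes. The 5 segments from 30 to 55 Mb had median widths of 269 to 303 bp in MYC and 273 to 287 bp in MYCN, and the lowest of the other 254 segments had 304 bp in MYC and 288 bp in MYCN. Their median score percentiles were 29.7 to 33.8 in MYC and 28.7 to 33.4 in MYCN, and no other segment was below 40.8 in MYC or 40.0 in MYCN. By these measures, the same 5 segments ranked lowest in both libraries. In peak number they held 111 to 146 MYC peaks and 93 to 127 MYCN peaks, and 4 of the 5 lay below every other segment in either list. At 25 to 30 Mb, MYC peaks had a median width of 310 bp and a percentile of 41.9, ranks 9 and 8 from the bottom of the 259 segments, and MYCN peaks 332.5 bp and 45.04. At 55 to 60 Mb, MYC peaks had a median width of 357 bp and a percentile of 44.1, and MYCN peaks 305 bp and 46.7. In peak number, that segment was next to the middle, with 149 peaks in either list, and it held the window with the fewest MYC peaks of the arm, 12 at 56 to 57 Mb.

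**Figure D2:**
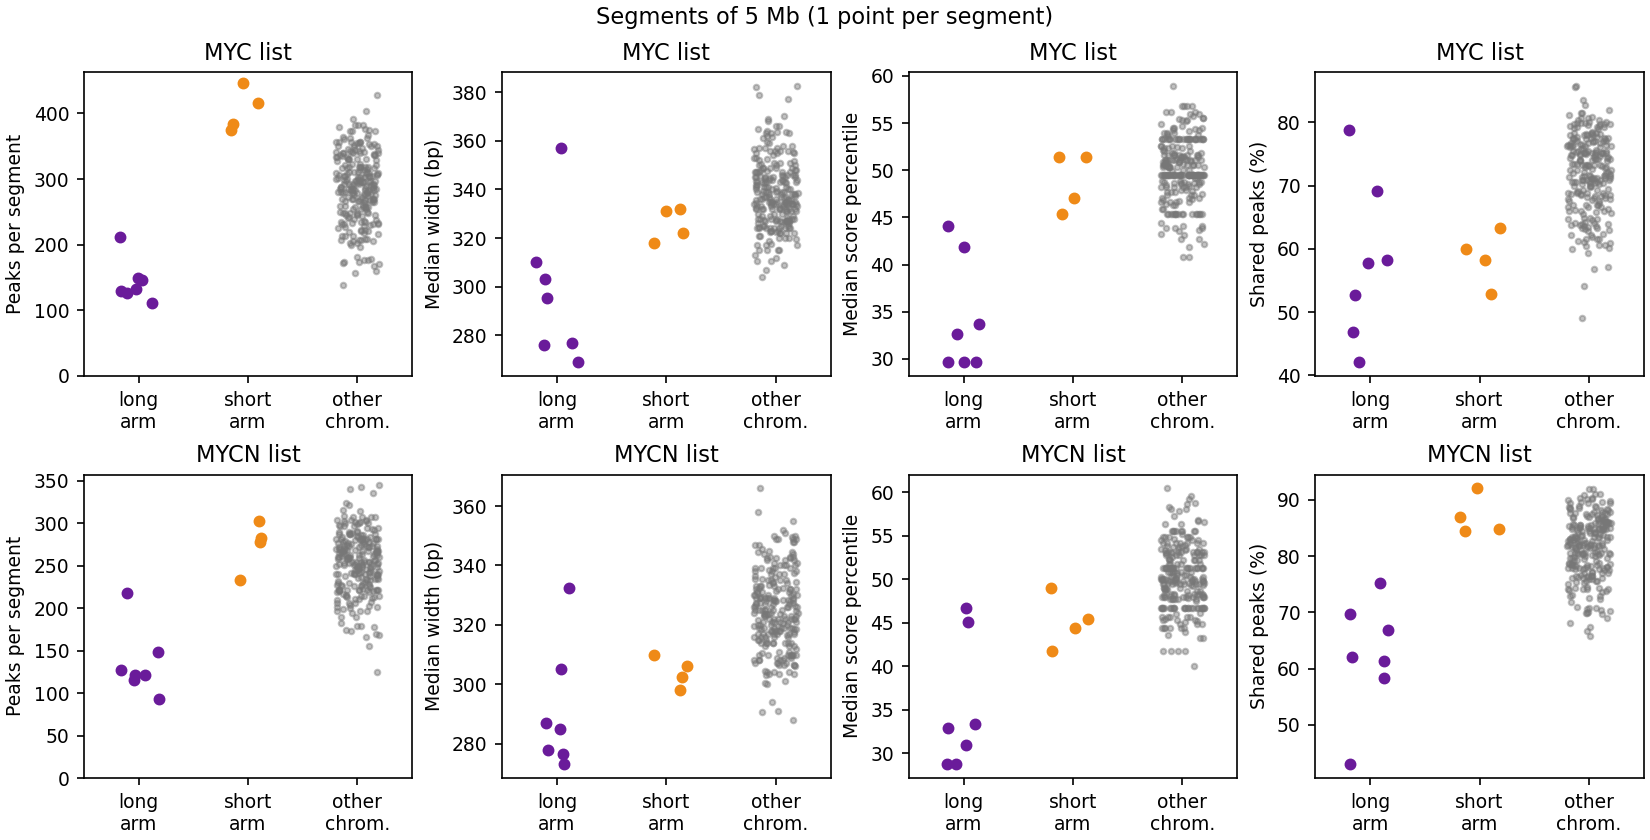
Values of 5 Mb segments, 1 point per segment, for the MYC list (top) and the MYCN list (bottom). From left to right, the panels show the number of peaks, the median width in bp, the median score percentile and the share of peaks that overlap the other list, for 7 long arm segments, 4 short arm segments and 247 segments of other chromosomes; sideways scatter has no meaning. Most long arm points lie low, and 5 of the 7 lie below all grey points in median width and percentile. Points that do not lie low include a MYC shared share of 78.8%, a MYC width of 357 bp and a MYCN width of 332.5 bp.

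Strong open sites were nevertheless present on the arm, and the highest-scoring ones were open in both tumours. The highest MYC score lay at chr4:49700398-49701142, with a score of 878 and rank 246 of the MYC list, and its MYCN counterpart at chr4:49700389-49701109 had a score of 586 and rank 707. The highest MYCN score lay at chr4:47497258-47497920, with a score of 842 and rank 49 of the MYCN list, and its MYC counterpart had a score of 726 and rank 940. These were the leading sites of the arm, and each ranked among the first 1000 of both lists.

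Several further sites ranked high in both lists. The site at chr4:28471877-28472287 had a score of 834 in MYC (rank 368) and 730 in MYCN (rank 170). That at chr4:29070512-29070982 had a score of 829 in MYC (rank 384) and 713 in MYCN (rank 202). A site near the arm's end, at chr4:60232003-60232418 had a score of 734 in MYC (rank 873) and 594 in MYCN (rank 652). All 10 highest-scoring long arm peaks of either list were shared, and 5 sites belonged to the highest 10 of both. In the highest score class of the whole lists, only 0.347% of MYC and 0.511% of MYCN peaks overlapped no peak of the other list. The overlap of these 10 is thus near that background and is not particular to the arm.

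The remaining sites among the 10 highest of MYC did not belong to the 10 highest of MYCN. That at chr4:30228406-30229050 had a score of 817 in MYC (rank 420) and 529 in MYCN (rank 1216), and that at chr4:58149713-58150273 had 742 (rank 813) and 517 (rank 1338). The site at chr4:39959247-39959775 had the widest split, with a score of 718 in MYC (rank 986) and 323 in MYCN (rank 6175). The last of these 10 lay at chr4:26437360-26437750 with a score of 690 and at chr4:43898467-43898890 with 655. Among the 10 highest of MYCN, the site at chr4:30188670-30189759 had a score of 609 (rank 573) and its MYC counterpart 567 (rank 2920). The site at chr4:60617497-60618025 had a score of 564 in MYCN (rank 871), and its MYC counterpart had 453 (rank 5687). The other sites of these 10 lay at chr4:27873330-27873720 (score 597), chr4:30795340-30795891 (576) and chr4:27487809-27488676 (544).

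For comparison, the highest short arm score was 942 (rank 121) in MYC, at chr4:8898300-8899034, and 578 (rank 765) in MYCN, at chr4:3951565-3952276. The first 1000 ranks, ties included, held 8 long arm MYC peaks, or 0.714%, against 0.740% of the short arm peaks and 1.29% of the whole MYC list. In MYCN they held 9 long arm peaks, or 0.859%, against 0.182% of the short arm peaks (2 peaks) and 1.46% of the whole MYCN list. Against the whole list, the long arm share was lower in MYC and in MYCN. These shares rest on 8 and 9 peaks and have no interval, so a difference beyond counting error is not shown.

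Few peaks were wide. Peaks wider than 1 kb made up 6 of 1121 long arm peaks in MYC, or 0.535%, against 0.679% on the short arm and a background of 1.17% of the whole MYC list. In MYCN they made up 12 of 1048, or 1.15%, against 0.365% on the short arm and a background of 0.817% of the whole MYCN list. The widest in both lists started at the same base, at chr4:43971087-43974036 in MYC (2950 bp, score 398) and at chr4:43971087-43973293 in MYCN (2207 bp, score 381). In MYCN a second peak with a score of 402 followed it, so that the MYC peak overlapped 2 MYCN peaks. The other wide MYC peaks lay at chr4:60359286-60360495 (1210 bp), chr4:60225969-60227077 (1109 bp), chr4:56230486-56231588 (1103 bp) and chr4:59374283-59375341 (1059 bp), and each had a single MYCN counterpart. The other wide MYCN peaks lay at chr4:28001563-28003638 (2076 bp), chr4:26425440-26426894 (1455 bp), chr4:57651854-57653180 (1327 bp) and chr4:26169694-26170938 (1245 bp). Each of these was split into 2 peaks in the MYC list.

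Many long arm sites were called in a single list. Peaks with an overlap of 1 bp or more in the other tumour's list are called shared here, and the rest list-only. In MYC, 434 of 1121 long arm peaks were list-only, or 38.7%, against 41.3% on the short arm and a background of 28.9% of the whole MYC list. In MYCN, 359 of 1048 were list-only, or 34.3%, against 12.7% on the short arm and a background of 18.4% of the whole MYCN list. The shared share was 61.3% on the long arm in MYC (Wilson interval 58.4 to 64.1), against 58.7% on the short arm (56.3 to 61.1). It was 65.7% in MYCN (62.8 to 68.6), against 87.3% (85.2 to 89.2).

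The contrast between the arms had opposite signs in the lists, and the difference between the lists was not tested. In MYCN the difference in shared share, long arm minus short arm, was -21.6 points, with a Newcombe interval of -25.0 to -18.1. In MYC it was 2.56 points, with an interval of -1.18 to 6.26 that includes 0. With the long arm counted from 30 Mb, the MYC difference was -1.52 points, and over 30 to 55 Mb alone it was -7.11 points. Without the stretch from 55 Mb on, it was -0.406 points (-4.49 to 3.65), so the sign in MYC rests on the limits chosen for the arm. Against the other chromosomes, the long arm was lower in both lists, with differences of -10.2 points in MYC (-13.1 to -7.38) and -16.0 points in MYCN (-18.9 to -13.2). Overlapping peaks of both lists were also merged into regions. Of the long arm regions, 46.0% held peaks of both lists (43.4 to 48.5), against 53.7% on the short arm (51.3 to 56.0).

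Since weak peaks were shared less often everywhere, the shares were also compared within score classes. In the lowest class, 31.6% of long arm MYC peaks were shared, against 17.8% of short arm peaks and 34.5% on other chromosomes. In the same class, 24.9% of long arm MYCN peaks were shared, against 64.4% and 49.3%. In class 5, the long arm shares were 77.0% in MYC, against 56.3% and 69.0%, and 68.9% in MYCN, against 91.9% and 83.2%. In MYC the long arm share was above that of the short arm in 7 of 10 classes. In MYCN the long arm share was below that of the short arm in 9 of 10 and equal at 100% in the highest.

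**Figure D3:**
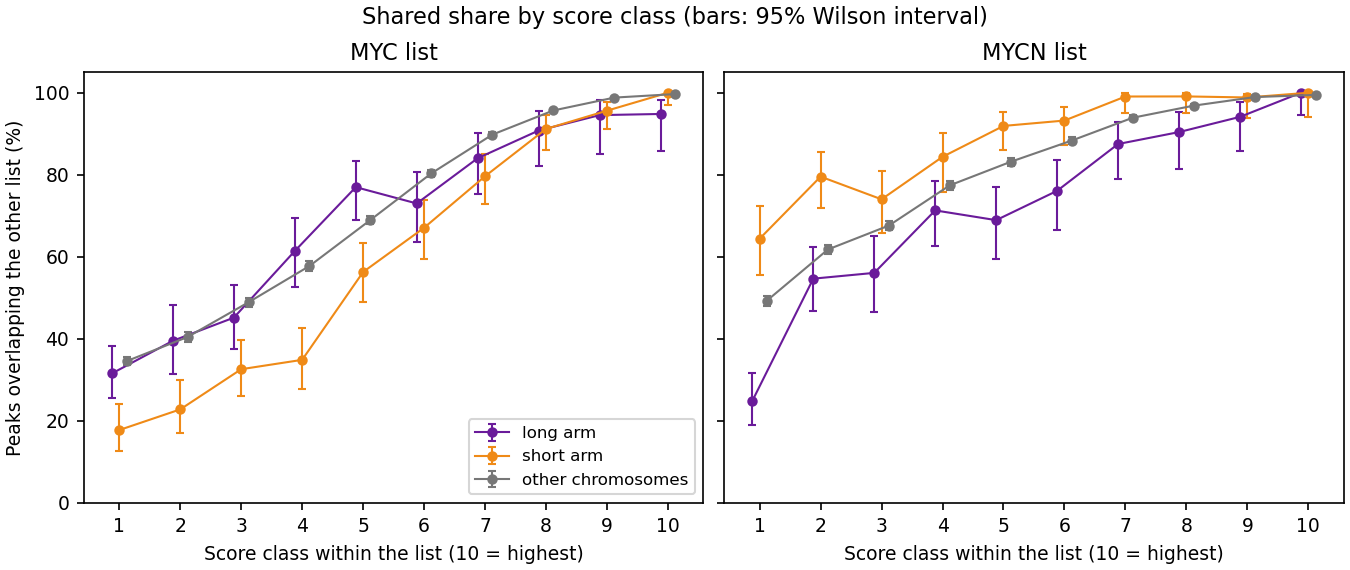
Share of peaks that overlap a peak of the other list, in percent (y axis), by score class within each list (x axis, 1 is the lowest and 10 the highest), for the MYC list (left) and the MYCN list (right). Points are shares and bars are 95% Wilson intervals; purple is the long arm, orange the short arm and grey the other chromosomes. In MYCN the long arm lies below both others in classes 1 to 9. In MYC it lies below the other chromosomes in 8 of 10 classes.

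With the short arm shares weighted by the score classes of the long arm, the short arm came to 49.3% in MYC and 85.0% in MYCN. Set against these values, the long arm shares of 61.3% and 65.7% gave differences of 12.01 points in MYC and -19.2 points in MYCN. With the other chromosomes weighted in the same way, the differences were -1.78 points in MYC and -10.8 points in MYCN. At matched scores, the shortfall against the other chromosomes was thus larger in the MYCN list.

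The shares differed along the arm. From 30 to 55 Mb, 51.6% of MYC peaks were shared (47.8 to 55.5) and 58.1% of MYCN peaks (54.1 to 62.1), against 59.4% and 73.5% for the other chromosomes weighted to the scores of this stretch. From 55 Mb to the end, the shares were 71.0% in MYC and 75% in MYCN, against weighted values of 68.7% and 80.3%. From 58 Mb, where the rise in density started, to the end, they were 76.4% and 82.0%, against 71.8% and 81.1%. At 25 to 30 Mb they were 78.8% and 75.2%, against 67.4% and 80.1%. By 5 Mb segment, the lowest MYC share was 42.1% at 50 to 55 Mb, the lowest of all 259 segments. The lowest MYCN share was 42.98% at 35 to 40 Mb, also the lowest of all 259 segments.

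The list-only peaks of the long arm came almost evenly from both tumours. Of 793 long arm list-only peaks, 54.7% were MYC-only (51.2 to 58.2), against 82.8% of 808 on the short arm (80.0 to 85.2) and a background of 64.1% over both whole lists. The difference between the arms was -28.1 points (-32.3 to -23.7). Against the other chromosomes, the long arm difference was -9.09 points (-12.6 to -5.61). By the segments used above, the long arm MYC-only shares of 45.5% to 68.1% lay within the 32.0% to 88.0% of other chromosomes. Short arm segments had 78.6% to 87.2%, in the upper part of that range. An almost even split is thus not particular to the long arm, and the contrast between the arms rests partly on a high short arm share. The ratio of MYC to MYCN peaks was 1.07 on the long arm (0.983 to 1.16), against 1.48 on the short arm (1.37 to 1.60) and 1.13 on the other chromosomes. By segment, the long arm ratios of 0.917 to 1.43 also lay within the 0.841 to 1.63 of other chromosomes. When the MYC list was trimmed by score to the length of the MYCN list, the long arm had fewer MYC than MYCN peaks, with a ratio of 0.862, and 40.2% of its list-only peaks were MYC-only. The direction on the long arm thus changed with this trim, while the arms differed under both settings. The trim makes the whole lists equal in length, so it lowers the ratio of the whole lists too. The background of 64.1% therefore does not apply to the 40.2%, and a background under the trim is not given here. The trim removes low-scoring MYC peaks, which made up more of the long arm than of the short arm. Among peaks that reach the median score of the pooled lists, the long arm ratio was 1.16 (1.01 to 1.34). Why the direction changed was not tested.

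The strongest MYC-only sites of the arm lay in its middle. Of the 58 long arm MYC peaks in the highest score class, 3 were list-only, so that 94.8% were shared (85.9 to 98.2), against a background of 0.347% list-only in that class of the whole MYC list, which has 27 such peaks in all. These 3 lay at chr4:39985536-39985925 with a score of 526 and 16570 bp to the closest MYCN peak, at chr4:40341102-40341430 with 453 and 6649 bp, and at chr4:41684396-41684858 with 443 and 53020 bp. The next MYC-only peak, at chr4:34865944-34866312 with a score of 396, had a MYCN peak less than 1 kb away. Among MYC-only peaks over 1 kb from any MYCN peak, the following lay at chr4:40358457-40358815 with a score of 336 and at chr4:31131913-31132278 with 286. The site that ranked so differently among the shared ones, at 39959247, lay in the same stretch.

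None of the 68 long arm MYCN peaks in the highest class was list-only, against a background of 0.511%. The strongest MYCN-only sites lay at chr4:56386548-56387080 with a score of 282 and 43524 bp to the closest MYC peak, at chr4:35407746-35408090 with 261 and 12555 bp, and at chr4:54539778-54540500 with 241 and 3527 bp. The following lay at chr4:61536749-61537257 with a score of 235 and at chr4:38157193-38157623 with 211, where the closest MYC peak was at 73485 bp. Taking all list-only peaks of the long arm, the nearest peak of the other list was at a median of 12.7 kb in MYC, against 5.81 kb on the short arm. In MYCN it was at 10.2 kb, against 4.31 kb. Both lists were sparser on the long arm, and these distances were not adjusted for density. The share over 1 kb from the other list was 88.7% in MYC, against 86.7% on the short arm, and 86.9% in MYCN, against 87.1%.

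At sites open in both tumours, the scores of the lists were less correlated on the long arm than on the short arm. On the long arm, 649 sites had exactly 1 peak in each list, against 898 on the short arm. Their midpoints lay a median of 30 bp apart, against 28.5 bp on the short arm and 27 bp on the other chromosomes. Pairing required an overlap, so the choice of sites itself limits how far apart the midpoints can lie. The scores of the long arm sites had a Spearman correlation between the lists of 0.62, against 0.72 on the short arm and 0.73 on the other chromosomes. The correlations were computed across sites, which share a library and are not replicates, and have no interval. The MYC percentile exceeded the MYCN percentile at 46.2% of the long arm sites (42.4 to 50.1), against 78.7% of the short arm sites (75.9 to 81.3) and 58.4% on the other chromosomes. The median difference in percentile, MYC minus MYCN, was -0.88 points on the long arm and 10.8 points on the short arm. The score ranks of the short arm sites thus leaned towards MYC, and those of the long arm did not.

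The largest shifts on the long arm went both ways. The site at chr4:59175195-59175650 stood at percentile 83.3 in MYC and 9.96 in MYCN, and that at chr4:43590223-43590788 at 73.7 and 7.55. In the other direction, the site at chr4:33674146-33674356 stood at percentile 22.9 in MYC and 97.9 in MYCN, where its score was 509, and that at chr4:31567053-31567252 at 3.32 and 78.3.

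**Figure D4:**
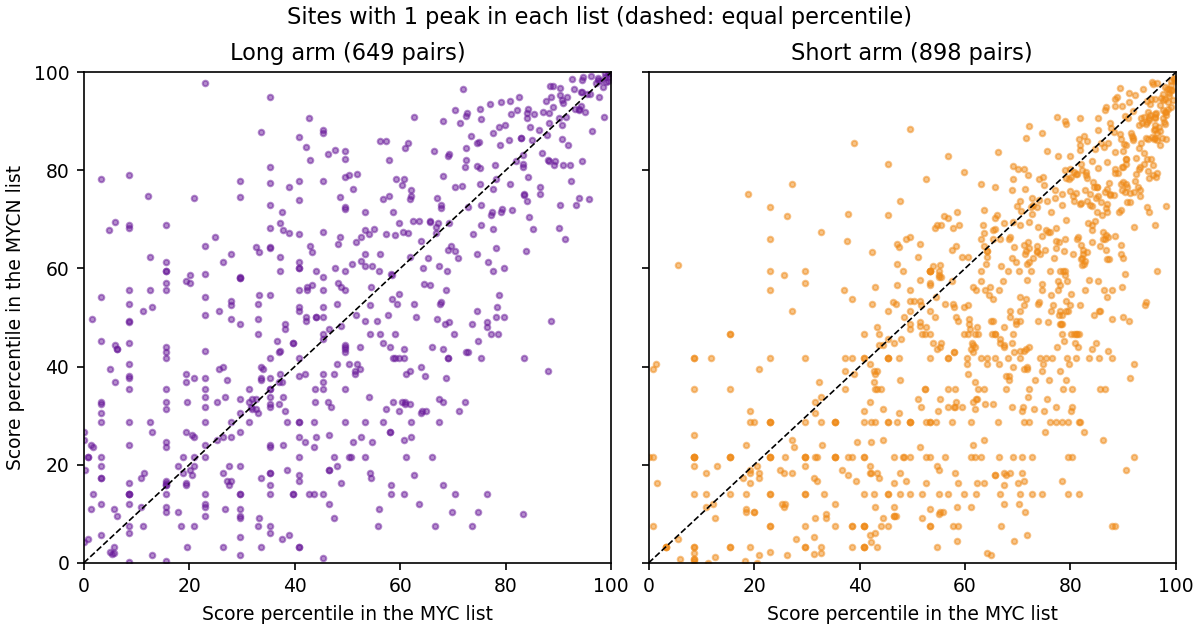
Score percentile in the MYCN list (y axis) against that in the MYC list (x axis) for sites with exactly 1 peak in each list, on the long arm (left, 649 sites) and the short arm (right, 898 sites). Each point is a site and the dashed line marks equal percentiles. Long arm points scatter on both sides of the line, and 78.7% of short arm points lie below it.

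Neighbouring peaks lay farther apart on the long arm than on the short arm. The median gap to the next peak of the same list was 17.8 kb on the long arm in MYC, against 6.93 kb on the short arm, and 20.2 kb in MYCN, against 10.2 kb. Gaps under 5 kb made up 21.9% on the long arm in MYC (19.6 to 24.4), against 36.0% (33.7 to 38.4), and 19.7% in MYCN (17.4 to 22.2), against 27.1% (24.6 to 29.8). For gaps under 2 kb, the difference between the arms was -3.80 points in MYC (-6.48 to -1.04) and 0.15 points in MYCN, with an interval of -2.74 to 3.06 that includes 0. Longer gaps follow from the lower density and are not a separate trait. The standard deviation of the gaps over their mean, a measure relative to density, was alike on the arms. It was 1.29 on the long arm and 1.28 on the short arm in MYC, and 1.24 and 1.21 in MYCN.

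**Figure D5:**
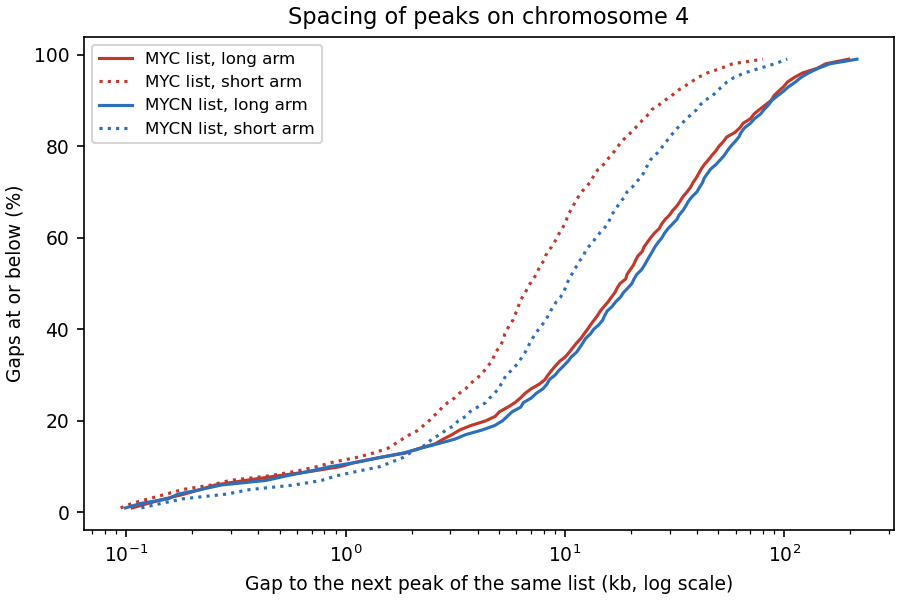
Share of gaps at or below a length, in percent (y axis), against the gap to the next peak of the same list in kb on a log scale (x axis). Red is the MYC list, blue the MYCN list, solid the long arm and dotted the short arm. The lines of the arms run close together up to about 2 kb and part beyond it, where the long arm has the longer gaps.

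The longest stretches of the long arm without a peak of either list lay at chr4:54081019-54306694 (226 kb), chr4:56830297-57045064 (215 kb) and chr4:36876581-37086285 (210 kb). The following were 187 kb at chr4:37711531-37898527 and 185 kb at chr4:32489368-32674704. On the short arm the longest was 130 kb, at chr4:11551840-11681588. Of the 371 windows of 100 kb on the long arm, 13 held no peak start of either list, against 0 of 200 on the short arm.

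The densest cluster of the arm was as crowded as the densest of the short arm. The 100 kb window chr4:27800001-27900000 held 17 MYC and 17 MYCN peaks, of which 1 and 2 were list-only, against 18 and 11 in the densest short arm window, chr4:12200001-12300000, of which 8 and 1 were list-only. The MYC peaks of the long arm cluster ran from 27863499 to 27897400 at a median gap of 0.620 kb, and the strongest lay at 27873323 with a score of 506, against 597 for its MYCN counterpart. The next windows were the chromosome end beyond 62 Mb (16 MYC and 15 MYCN peaks), chr4:43900001-44000000 (12 and 13), chr4:27600001-27700000 (11 and 11) and chr4:60200001-60300000 (10 and 11). In these clusters the lists differed by at most 1 peak.

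Evenly spaced arrays of peaks were looked for along the arm. An evenly spaced run was taken as at least 4 consecutive peaks of a list whose midpoints follow each other at 500 bp to 20 kb, with the largest distance at most 10% above the smallest. The long arm held 1 such run in each list, or 4 of 1121 MYC peaks (0.357%, 0.139 to 0.914), against 1.23% on the short arm and a background of 0.784% of the whole MYC list. In MYCN it was 4 of 1048 peaks (0.382%, 0.149 to 0.977), against 1.46% on the short arm and a background of 0.623% of the whole MYCN list. Both intervals include the background of their list, so a difference from it was not detectable with so few runs. A run needs consecutive distances of at most 20 kb, which are rarer where peaks are sparse. The median gap was 17.8 kb (MYC) and 20.2 kb (MYCN) on the long arm, against 6.93 and 10.2 kb on the short arm. The run shares were not adjusted for density, so they are not comparable between the arms. Both runs were at the same place, chr4:26564267-26576643 in MYC and chr4:26564244-26576705 in MYCN. The midpoint distances were 4113.5, 4105.5 and 3785 bp in MYC and 4144.5, 4097 and 3821 bp in MYCN. The scores along the run were 276, 462, 199 and 134 in MYC, and 384, 450, 130 and 147 in MYCN. On the short arm, 1 run was likewise present in both lists, at chr4:18576021-18586237 in MYC.

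Recurring distances were mostly short. Among the 1024 pairs of long arm MYC peaks up to 20 kb apart, the commonest 100 bp classes of midpoint distance were 400 to 499 bp (34 pairs), 500 to 599 bp (14) and 13300 to 13399 bp (14), against a median of 5 per class. Among the 927 MYCN pairs they were 400 to 499 bp (20), 300 to 399 bp (19) and 500 to 599 bp (19), against a median of 4. The 400 to 499 bp class made up 3.32% of long arm pairs in MYC, against 1.37% on the short arm (41 pairs, median of 15 per class). In MYCN it made up 2.16%, against 1.00% (14 pairs, median of 7). The denser short arm had more pairs up to 20 kb apart, 2991 in MYC and 1396 in MYCN, so these percentages are not comparable between the arms. Set against peaks, the class had 34 pairs for 1121 long arm MYC peaks and 41 for 1621 short arm peaks. In MYCN it had 20 pairs for 1048 peaks and 14 for 1097. Beyond 1 kb, the highest MYCN class, 6700 to 6799 bp, had 12 pairs, and it had 12 in MYC too. In either list these 12 pairs were spread over 10 windows of 1 Mb, so that they did not form a single array. Since many sites are shared, the pairs of the lists can be the same sites. On the short arm, the highest classes beyond 1 kb were 5500 to 5599 bp in MYC (30 pairs) and 5300 to 5399 bp in MYCN (15 pairs). A class above the median is thus not particular to the long arm.

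A local repeat of spacing without even steps was seen at 43.9 Mb, a description chosen after the values were seen. In the MYC list, 3 pairs of peaks had midpoints 3380.5, 3404.5 and 3351 bp apart, the first members at 43919866, 43936066 and 43986270. In the MYCN list, the same pairs were 3385, 3370 and 3348.5 bp apart. The first members were 332 to 357 bp wide in MYC and 329 to 352 bp wide in MYCN. The MYC scores of the first and second member were 368 and 182, 367 and 250, and 252 and 229. The MYCN scores were 335 and 169, 304 and 222, and 202 and 316. A further MYCN pair there, with scores of 46 and 53, lay 3436 bp apart, and its first peak was MYCN-only. Whether these peaks share a sequence was not tested, since a genome sequence of danRer7 was not used here.

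Consecutive sites from a single list also formed series. The longest in MYC had 7 sites at chr4:50771558-50852793, over 81.2 kb, and the longest in MYCN had 6 sites at chr4:38122629-38229121, over 106 kb. On the short arm the longest series had 7 sites in MYC and 3 in MYCN. The long arm series in MYC lay in the 5 Mb segment with the lowest MYC shared share. That in MYCN lay in the segment with the lowest MYCN shared share. A series is made of list-only sites, so it rests on the same overlap calls and is not separate evidence.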

How the data were processed

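ATAC-seq was available for 2 samples, 1 MYC and 1 MYCN library, grouped by their titles. Per the submitters' processing notes, the tools were Bowtie2 2.2.1 and MACS2 2.1.0 and the build was danRer7. Not given in the sources used here are settings, duplicate removal, any control, the Tn5 offset and how multiply matching reads were handled. Each list, as deposited by the authors, holds positions and a whole-number score per peak, on a scale that no header states. Whether replicates were pooled is not given either. The lowest score was 13 and the smallest width 200 bp in both lists.

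Starts are counted from 1. The long arm was measured up to the last peak end, 62080023. Values came from Python 3.11.15 (numpy 2.4.6, pandas 2.3.3, scipy 1.17.1, matplotlib 3.10.9), with overlaps checked against bedtools 2.31.1 and the overlap and run steps tested on simulated data. Score classes were 10 classes of the percentile within each list, tied scores kept together. Named regions were the 10 highest-scoring and 5 widest long arm peaks of each list, the 5 highest-scoring list-only peaks over 1 kb from the other list, the 5 densest windows of 100 kb, the 5 longest empty stretches, all evenly spaced runs and the 3 commonest distances. The percentile shifts, the site series and the pairs at 43.9 Mb were added later. The region, comparisons and rules were chosen with earlier results of these data known. A genome and annotation of danRer7 were not used here, so no sequence, gene or marker list is given. Alternatives were other overlap rules, arm limits, lists, score classes and run tolerances.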

Additional observations from a re-analysis of the deposited data

Results flagged for a closer look

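The contrast between the arms in shared share had opposite signs in the lists, at 2.56 points (long arm minus short arm) in MYC and -21.6 points in MYCN. The difference between the libraries was not tested, since each transgene had 1 library. The MYC value is within counting error of 0 and turns to -0.406 points without the stretch from 55 Mb on and to -1.52 points with the long arm from 30 Mb, where the signs are the same in both lists. The MYC density on the short arm was 81.1 peaks per Mb, against 54.9 in MYCN. A shared share divides the shared peaks by all peaks of its list. On the long arm, 687 MYC and 689 MYCN peaks were shared, of 1121 and 1048. On the short arm, 952 and 958 were shared, of 1621 and 1097. An overlap counts in both lists at once, and most shared sites had 1 peak in each, so the shared numbers are alike by construction. The shares of the lists therefore differ mainly through their numbers of peaks. The shared shares, the MYC-only share and the ratio of MYC to MYCN peaks restate the same counts and are not separate evidence. Why the numbers of peaks differed was not tested.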

How the results depend on the processing

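Of 149 values for 20 results, 9 changed direction under an alternative, and for 3 of these the reported value had an interval that excludes no difference. The 149 include values of the long arm shared share itself, a percentage that could not change direction. By size, 96 of the values stayed within the counting interval of the reported one. Nothing of what follows had its cause tested.

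With an overlap of at least 50% of both peaks, the long arm shared share was 54.1% in MYC and 57.9% in MYCN, and the MYC-only difference between the arms was -21.1 points. With any peak of the other list within 500 bp counted, the shares were 64.3% and 68.6%. With the MYC list trimmed to the length of the MYCN list, the shares were 68.3% and 59.4%, the MYCN difference from the short arm was -25.1 points, the MYC-only share of the long arm turned to 40.2% and its difference was -34.8 points. The same trim gave a MYC density ratio of 0.341 and MYC to MYCN peak ratios of 0.862 on the long arm and 1.30 on the short arm. It makes the whole lists equal in length, so the ratio of the whole lists fell too. With peaks at or above the median score of their list, the shares were 85.7% and 88.7%, the MYCN difference was -9.06 points, the MYC-only difference -35.2 points and the density ratios 0.267 and 0.430. Among peaks that reach the median score of the pooled lists, the peak ratios were 1.16 on the long arm and 1.83 on the short arm.

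With the long arm from 30 Mb, the MYC share was 57.2%, its difference -1.52 points and the MYCN density ratio 0.472. With 30 to 55 Mb alone, an alternative chosen after seeing the data, the shares were 51.6% and 58.1%, the differences -7.11 and -29.2 points and the density ratios 0.319 and 0.422. In that stretch the percentile differences were -18.8 points in MYC and -13.0 points in MYCN, and the MYCN width difference was -24 bp. With 25 to 55 Mb, also chosen after seeing the data, the shares were 58.3% and 62.8%, and their differences from the short arm -0.406 points in MYC, a changed sign, and -24.5 points in MYCN. Against the other chromosomes, the share differences were -10.2 and -16.0 points, the MYC-only difference -9.09 points, the MYC density ratio 0.523, and the MYCN width and percentile differences -29 bp and -12.8 points.

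With width classes in place of score classes, the weighted MYC difference was 7.08 points. With shared peaks only, the MYC differences were -47.5 bp and -18.1 points, and the MYCN differences were 7 bp and 0.50 points, both with a changed sign. Gaps under 2 kb differed by -3.80 points in MYC and 0.15 points in MYCN, where the sign changed, and gaps under 10 kb by -29.5 and -16.2 points. Runs with a tolerance of 20% differed by -2.04 points in MYC, and no run of at least 5 peaks was found on either arm, a difference of 0.0 points in both lists.

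No paired analysis was possible because there is a single library of either tumour, and for the same reason no replicate was left out. Read depth is unknown, and closed sites cannot be told apart from sites under a library's detection limit. The placing of reads from repeated sequence is unknown here, and its part in the long arm values was not tested. Intervals treat peaks as independent, which neighbouring peaks are not.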

Other observations

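The 5 Mb left between the arms, from 20 to 25 Mb, had values closer to the short arm in most measures when taken as a whole. It held 309 MYC and 256 MYCN peaks, or 61.8 and 51.2 per Mb, with median widths of 334 and 304 bp. Of these, 68.9% were shared in MYC and 84.8% in MYCN, and 71.1% of its 135 list-only peaks were MYC-only. The stretch was not uniform. Its 1 Mb windows, in order, held 78, 79, 55, 39 and 58 MYC peaks. Their MYC-only shares were 90.3%, 82.4%, 45.7%, 61.1% and 76.5%, so values changed within the stretch and not only at 25 Mb. At the limit of 25 Mb, the last peak before it spanned chr4:24999371-25000101 in MYC, with a score of 414, and the first peak after it spanned chr4:25001721-25002037, with a score of 147. In MYCN the same peaks had scores of 470 and 149, and all 4 were shared.

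Within the long arm, the stretches from 54 to 55 Mb and from 56 to 57 Mb held the fewest MYC peaks. They held 13 and 12 MYC peaks and 21 and 19 MYCN peaks, of which 7 and 8 in MYC and 15 and 15 in MYCN were list-only. Over the long arm, 38.7% of MYC and 34.3% of MYCN peaks were list-only, against 28.9% and 18.4% of the whole lists. These windows were picked for few MYC peaks, which leaves few for a MYCN peak to overlap.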
